A study of Mus musculus with 6 samples.

Results

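Cells that run short of oxygen switch on a set of genes through hypoxia-inducible factor, a transcription factor whose alpha subunit is kept low in normal oxygen by prolyl hydroxylases that mark it for breakdown. The best known targets raise glycolysis, while others signal for new vessels, remove mitochondria, slow the growth pathway around the TOR kinase, or modify collagen. In glioma, tissue around necrotic zones is known for strong expression of these targets.

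Hypoxia response genes outside glycolysis were taken as the rows of the deposited table whose symbol was Hif1a, Egln1, Egln3, Vegfa, Adm, Bnip3, Bnip3l, Ddit4, Ndrg1 or P4ha1. All 10 genes had a row, of 45038 rows in all, and all 10 were protein-coding. RNA was sequenced from 3 circulating tumor cells (CTCs), which are tumor cells collected from blood, and from 3 tumor cells, whose sample titles carry the tag GBM. Mice 1157, 1168 and PDGF1 gave 1 CTC and 1 tumor cell each, so 6 cells were compared. Genotype, strain, treatment and age are not in the labels used here, and neither is what the name PDGF1 stands for. The series counts every sample as a single cell, while the source label uses that term for the CTCs alone. The values are FPKM, fragments normalised to transcript length and to the total mapped in that library, made from linearly amplified mRNA.

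The cells differed greatly in how many genes reached 1 FPKM. The FPKM of a cell, summed over all rows used here, ran from 46973 to 727351 in CTCs. In tumor cells it ran from 51239 to 615548, so 1 FPKM was not the same cutoff in each cell. Genes at 1 FPKM or more numbered 9702 in the CTC versus 11239 in the tumor cell of mouse 1168, against 1486 to 4078 in the other 4 cells. The depth, estimated from the smallest steps between low FPKM values, was 25.2 to 40.5 M fragments (M, 1e+06) in the CTCs against 10.9 to 51.9 M in the tumor cells. The level that 1 in 100 olfactory and vomeronasal receptor genes exceeded, their 99th percentile, was taken as a background level. It was 0.128 to 2.71 FPKM in the CTCs and 1.33 to 7.14 FPKM in tumor cells. Of 12 oligodendrocyte progenitor and glioma markers, 12 were at 1 FPKM or more in the CTC versus 10 in the tumor cell of mouse 1168, and the other cells had 0 to 4. Results on the hypoxia response genes therefore rest mainly on mouse 1168, where 10 of 10 in the CTC and 9 of 10 in the tumor cell reached 1 FPKM.

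The sequence just before the gene start is shown for 4 genes, since the factor is known to bind a short core, ACGTG or GCGTG, in promoters of its targets. These 4 cover the secreted factors Vegfa and Adm, which differed in opposite directions in mouse 1168, the mitophagy receptor Bnip3 and the collagen enzyme P4ha1. RefSeq windows (GRCm38.p6) were matched for 8 of the 10 genes, Bnip3l and Ndrg1 having none, and were searched on both strands over the 250 bases before the start. For 7 genes a window lies before the gene start, and 6 of these held at least 1 core. The only Hif1a window lies inside the gene and was not counted. Vegfa has a further window inside the gene, with 2 matches, which was not counted either. For comparison, 38.6% of all 32851 windows of that length held one, but these were not limited to windows before a gene start. Capitals mark the core, read as ACGTG or GCGTG on the gene's strand and as CACGT or CACGC on the opposite strand, and bases inside an annotated transcript were trimmed.
Vegfa: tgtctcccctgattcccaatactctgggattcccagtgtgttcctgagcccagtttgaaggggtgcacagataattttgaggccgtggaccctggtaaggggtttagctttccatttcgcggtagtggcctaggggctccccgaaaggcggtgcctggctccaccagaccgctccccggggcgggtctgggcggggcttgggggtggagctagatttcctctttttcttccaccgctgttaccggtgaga
Adm: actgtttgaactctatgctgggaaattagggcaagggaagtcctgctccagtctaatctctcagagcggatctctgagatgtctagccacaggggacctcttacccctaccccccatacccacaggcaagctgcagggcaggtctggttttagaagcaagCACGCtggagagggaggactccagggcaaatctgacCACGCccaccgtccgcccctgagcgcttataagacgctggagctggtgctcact
Bnip3: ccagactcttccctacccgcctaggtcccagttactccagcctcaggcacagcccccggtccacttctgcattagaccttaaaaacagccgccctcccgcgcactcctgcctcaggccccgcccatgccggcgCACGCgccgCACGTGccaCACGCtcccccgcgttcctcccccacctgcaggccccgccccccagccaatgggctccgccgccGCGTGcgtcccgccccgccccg
P4ha1: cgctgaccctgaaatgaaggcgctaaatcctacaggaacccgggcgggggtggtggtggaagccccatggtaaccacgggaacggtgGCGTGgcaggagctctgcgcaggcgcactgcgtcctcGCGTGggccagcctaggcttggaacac
The Adm window lies at chr7:110627407-110627656 on the plus strand, with opposite-strand cores that start 90 and 54 bases before the gene. Bnip3 lies at chr7:138909520-138909756 on the minus strand, and its 5 matches include an overlapping pair, since CACGTG reads the same on both strands. P4ha1 lies at chr10:59323046-59323196 on the plus strand with cores 163 and 126 bases before the start, and a further core 16 bases before it lies in the trimmed stretch. In Vegfa, at chr17:46032378-46032627 on the minus strand, no match was found in the window. A match is a run of letters and not a measured binding site.

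Over the 3 mice no hypoxia response gene passed the test between CTCs and tumor cells. On the log2(FPKM + 1) scale, limma with a mean-variance trend and Benjamini-Hochberg adjustment called 0 of 4165 tested genes (0%), with 7 at an unadjusted p under 0.05. Of the members, 6 were tested (Hif1a, Egln1, Vegfa, Adm, Ndrg1 and P4ha1), 0 were called, and each had an adjusted p of 0.99994. Bnip3, Bnip3l, Ddit4 and Egln3 were below 1 FPKM in too many cells to be tested. No member had all 3 CTCs above or all 3 CTCs below the 3 tumor cells, which 0.264% and 1.3% of tested genes had. Where a gene is given 3 values per group below, they are in the order of mice 1157, 1168 and PDGF1. With a lone cell of each kind per mouse, differences within a mouse carry no test and are given as values.

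**Figure D1:**
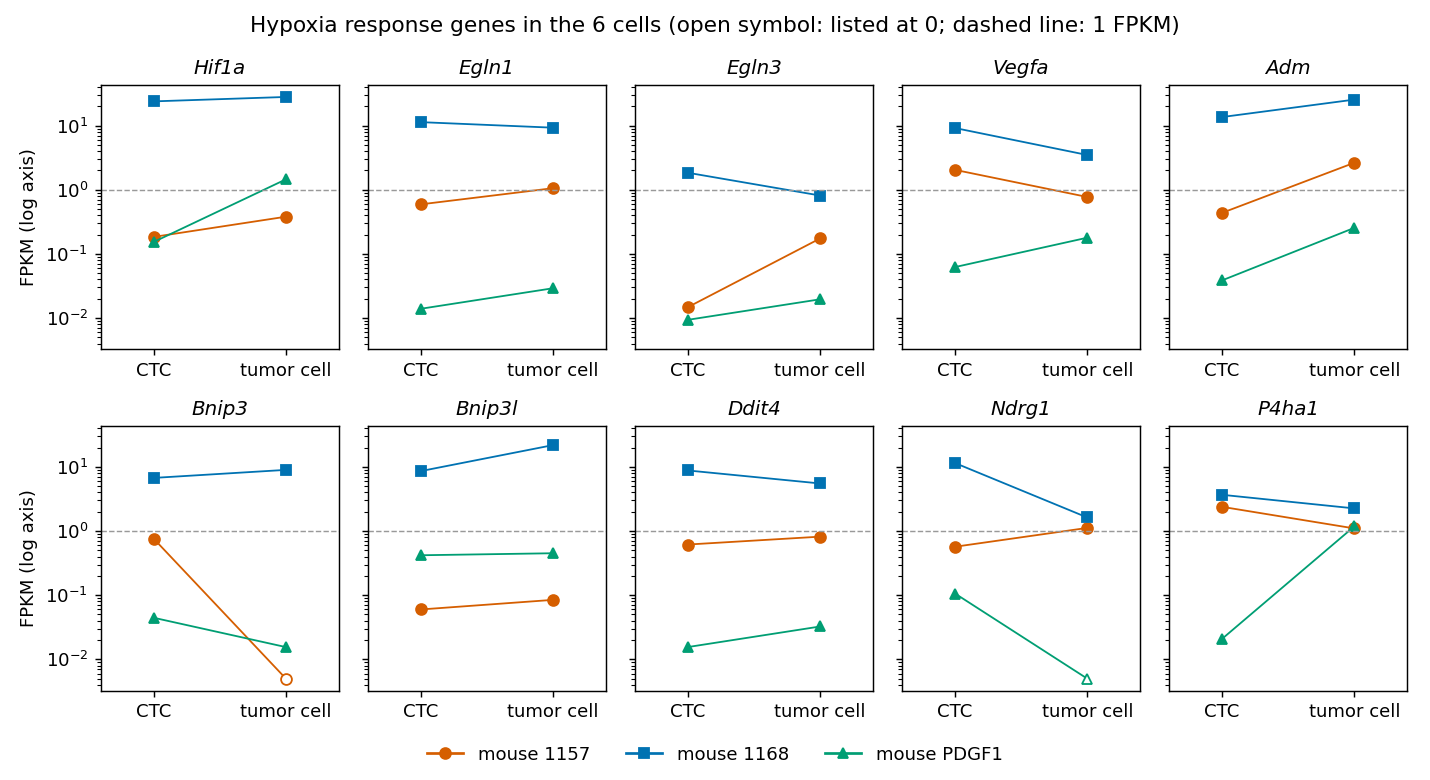
FPKM of each hypoxia response gene (vertical log axis) in each CTC and each tumor cell, with lines joining cells of 1 mouse and open symbols for values listed at 0. The cells of mouse 1168 have the highest value of their group for all 10 genes, from 1.84 to 23.9 FPKM in the CTC and from 0.813 to 27.95 FPKM in the tumor cell.

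The oxygen-regulated subunit itself had the highest level of the 10 members in both cells of mouse 1168, but not in mouse 1157 or in the CTC of mouse PDGF1. Hif1a (chr12:73901375-73947530, plus strand) encodes the alpha subunit of hypoxia-inducible factor 1. It had 0.184, 23.9 and 0.153 FPKM in CTCs, against 0.380, 27.95 and 1.45 FPKM in tumor cells. Each CTC was below the tumor cell of its own mouse, and the groups overlapped. Within mice the CTC value was 0.484, 0.853 and 0.106 of that of the tumor cell in the same order of mice, and this direction stayed with a pseudocount of 0.1 and with FPKM rescaled to equal sums. The limma difference was -0.51 with an SE of 1.904 on the log2(FPKM + 1) scale. The ratio of Hif1a to Epas1, which encodes the alpha subunit of hypoxia-inducible factor 2, was 4.02 in the CTC versus 4.43 in the tumor cell of mouse 1168. Gm15283, an antisense gene over Hif1a, was at 0.171 FPKM or less in every cell. Gm49321, a protein-coding gene that overlaps Hif1a on the same strand, was not analysed here, so reads shared with it cannot be told apart.

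Of the prolyl hydroxylases that mark this subunit, Egln1 and Egln3 were higher in the CTC of mouse 1168 and lower in the CTCs of the other mice on the deposited scale. Egln1 (chr8:124908587-124949324, minus strand), the main such enzyme, had 0.592, 11.3 and 0.0140 FPKM in CTCs, against 1.06, 9.28 and 0.0292 FPKM in tumor cells. Its limma difference was -0.04 with an SE of 1.39. In mouse 1168 the CTC was higher by 0.26 on the log2(FPKM + 1) scale, and the sign turned to -0.16 when FPKM was rescaled over protein-coding rows. Egln3 (chr12:54178981-54203860, minus strand), a hydroxylase that is itself a known target of the factor, had 0.0148, 1.84 and 0.00939 FPKM in CTCs, against 0.174, 0.813 and 0.0196 FPKM in tumor cells. The CTC of mouse 1168 was the only cell with Egln3 above 1 FPKM, at 2.27 times its tumor cell. About 1.01 fragments stood behind the Egln3 value in the CTC versus 2.0 in the tumor cell of mouse PDGF1. For Egln1 these were 2.03 (CTC) and 4.01 (tumor cell), so both genes were barely sampled there. Within mouse 1168 the ratio of Egln1 to Egln3 was 6.15 in the CTC versus 11.4 in the tumor cell. Egln2, the remaining prolyl hydroxylase of this family, had 8.51 times the Egln1 level in that CTC and 8.94 times in that tumor cell. Egln2 went the other way from Egln1 and Egln3 in mouse 1157, at 1.92 FPKM (CTC) and 0.136 FPKM (tumor cell).

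The secreted factors differed in opposite directions in mice 1157 and 1168 on the deposited scale, with Vegfa higher and Adm lower in the CTC. Vegfa (chr17:46016993-46032369, minus strand), the main growth factor for vessels, had 2.04, 9.17 and 0.0623 FPKM in CTCs, against 0.772, 3.48 and 0.179 FPKM in tumor cells. The CTC was the higher cell in mice 1157 and 1168 and the lower cell in mouse PDGF1. About 8.72 fragments (CTC) and 23.7 (tumor cell) were estimated in mouse PDGF1. In mouse 1168 the CTC had 2.63 times the tumor cell level, a difference of 1.18 on the log2(FPKM + 1) scale, with about 941 estimated fragments in the CTC versus 624 in the tumor cell. It was 0.86 when FPKM was rescaled over protein-coding rows. In mouse 1157 the difference was 0.78, and it turned to -0.14 when FPKM was rescaled over all rows. The limma difference over mice was 0.60 with an SE of 1.29.

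Adm (chr7:110627661-110629820, plus strand), which encodes the vessel-widening peptide adrenomedullin, was lower in the CTC than in the tumor cell in all 3 mice. It had 0.437, 13.6 and 0.0387 FPKM in CTCs, against 2.64, 25.4 and 0.255 FPKM in tumor cells. The CTC level was 0.166, 0.535 and 0.152 of the tumor cell level in the same order of mice. The direction stayed in each mouse with a pseudocount of 0.1 and with FPKM rescaled to equal sums, but the groups overlapped because both cells of mouse 1168 exceeded all others. The limma difference was -0.82 with an SE of 1.85, within the spread between cells of a group. Gm28863, an antisense gene over Adm, was listed at 0 in all 6 cells.

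Both members that act at mitochondria were lower in the CTC than in the tumor cell of mouse 1168. Bnip3 (chr7:138890836-138909519, minus strand), an outer-membrane receptor that draws mitochondria into autophagy, had 0.761, 6.72 and 0.0445 FPKM in CTCs, against 0, 8.97 and 0.0155 FPKM in tumor cells. Its order differed between mice, and only in mouse 1168 did either cell reach 1 FPKM. Gm45507 and Gm18258, which overlap Bnip3 on the opposite strand, were not analysed here. Bnip3l (chr14:66985239-67008877, minus strand), a close relative known for clearing mitochondria from maturing red cells, had 0.0598, 8.58 and 0.419 FPKM in CTCs, against 0.0845, 21.8 and 0.450 FPKM in tumor cells. The difference of Bnip3l in mouse 1168 was -1.25 on the log2(FPKM + 1) scale, a CTC level of 0.393 of the tumor cell level. In mice 1157 and PDGF1 the Bnip3l differences were -0.03 and -0.03, and the second changed sign when FPKM was rescaled over all rows. The ratio of Bnip3 to Bnip3l in mouse 1168 was 0.783 in the CTC versus 0.411 in the tumor cell. Bnip3l has an annotated pseudogene copy, Bnip3l-ps, which was not analysed here, so reads shared with it cannot be told apart.

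Among the growth and matrix members, Ndrg1 had the largest difference of the 10 in mouse 1168. Ndrg1 (chr15:66929318-66969640, minus strand), a cytoplasmic stress-response protein known as a metastasis suppressor in several tumor types, had 0.568, 11.5 and 0.106 FPKM in CTCs, against 1.12, 1.62 and 0 FPKM in tumor cells. The CTC of mouse 1168 stood above every other cell, at 7.06 times its tumor cell or 2.25 on the log2(FPKM + 1) scale, with about 1382 estimated fragments in the CTC versus 342 in the tumor cell. In mouse 1157 the CTC was the lower cell, by 0.43 on that scale. The limma difference was 0.65 with an SE of 1.04. Gm17035 and Gm2895, which overlap Ndrg1 on the opposite strand, were at 0.173 FPKM or less.

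Ddit4 (chr10:59949669-59951834, minus strand), an inhibitor of the TOR complex that responds to stress, had 0.615, 8.78 and 0.0155 FPKM in CTCs, against 0.817, 5.51 and 0.0325 FPKM in tumor cells. The CTC of mouse 1168 had 1.60 times the level of its tumor cell, while the CTC was the lower cell in the other mice. In mouse PDGF1 the Ddit4 values rested on about 1.11 fragments (CTC) and 2.18 (tumor cell). P4ha1 (chr10:59323296-59373304, plus strand), a catalytic subunit of the enzyme that hydroxylates collagen, had 2.38, 3.67 and 0.0209 FPKM in CTCs, against 1.10, 2.25 and 1.18 FPKM in tumor cells. Only the CTC of mouse PDGF1 was below 1 FPKM, where 3.42 fragments were estimated, against 183 in the tumor cell of that mouse. The P4ha1 difference was 0.69, 0.52 and -1.10 in mice 1157, 1168 and PDGF1, and the limma difference was 0.04 with an SE of 1.22. In mouse 1157 it turned to -0.40 when FPKM was rescaled over all rows.

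**Figure D2:**
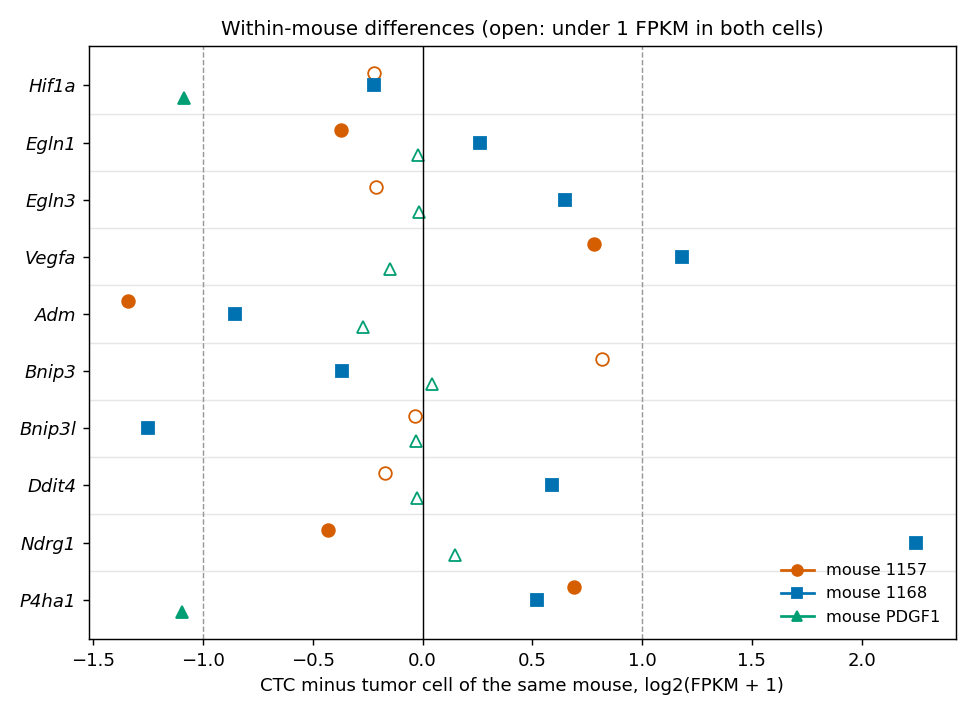
Difference between the CTC and the tumor cell of the same mouse for each hypoxia response gene, on the log2(FPKM + 1) scale, with dashed lines at -1 and 1 and open symbols where both cells were under 1 FPKM. Ndrg1 at 2.25 and Vegfa at 1.18 lie to the right of the dashed lines in mouse 1168, and Adm in mouse 1157, Bnip3l in mouse 1168, and Hif1a and P4ha1 in mouse PDGF1 lie to the left.

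A member was counted where either cell of the mouse had 1 FPKM or more and the difference was at least 1 either way. In mouse 1168, 2 of 10 members were higher in the CTC (Ndrg1 and Vegfa), where 22.7% of all 12396 genes measured were, and 1 of 10 was lower (Bnip3l), where 24.9% were. The median over the 10 members was 0.39, against 0.04 over all genes. In mouse 1157, 0 of 5 measured members were higher in the CTC and 1 was lower (Adm), beside 29% and 37.1% of all genes. In mouse PDGF1, 0 of 2 were higher and 2 were lower (Hif1a and P4ha1), beside 23.7% and 59.9% of all genes. With 2 to 10 members measured per mouse, 1 gene more or less moves these shares widely, and they were not tested against the background.

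The rank of a gene within its own cell does not depend on how FPKM is scaled, but ranks in different cells also vary with how many genes were detected. Protein-coding genes at 1 FPKM or more were 9.7% in the CTC versus 15.0% in the tumor cell of mouse 1157. These shares were 40.1% (CTC) and 46.3% (tumor cell) for mouse 1168, and 4.58% (CTC) and 9.8% (tumor cell) for mouse PDGF1. Among protein-coding genes the median percentile of the members was 84.0 in the CTC versus 81.1 in the tumor cell of mouse 1157. For mouse 1168 it was 79.9 (CTC) and 78.4 (tumor cell), and for mouse PDGF1 69.0 (CTC) and 64.2 (tumor cell). Ndrg1 ranked at the 82.4 percentile in the CTC, against the 59.1 percentile in the tumor cell, of mouse 1168, and Vegfa at 80.2 (CTC) and 68.9 (tumor cell). Adm ranked at 83.8 in the CTC versus 91.3 in the tumor cell of that mouse, and Bnip3l at 79.5 (CTC) and 90.1 (tumor cell). In mouse 1157, Vegfa ranked at 94.6 in the CTC versus 80.6 in the tumor cell, and Adm at 79.6 (CTC) and 95.1 (tumor cell).

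**Figure D3:**
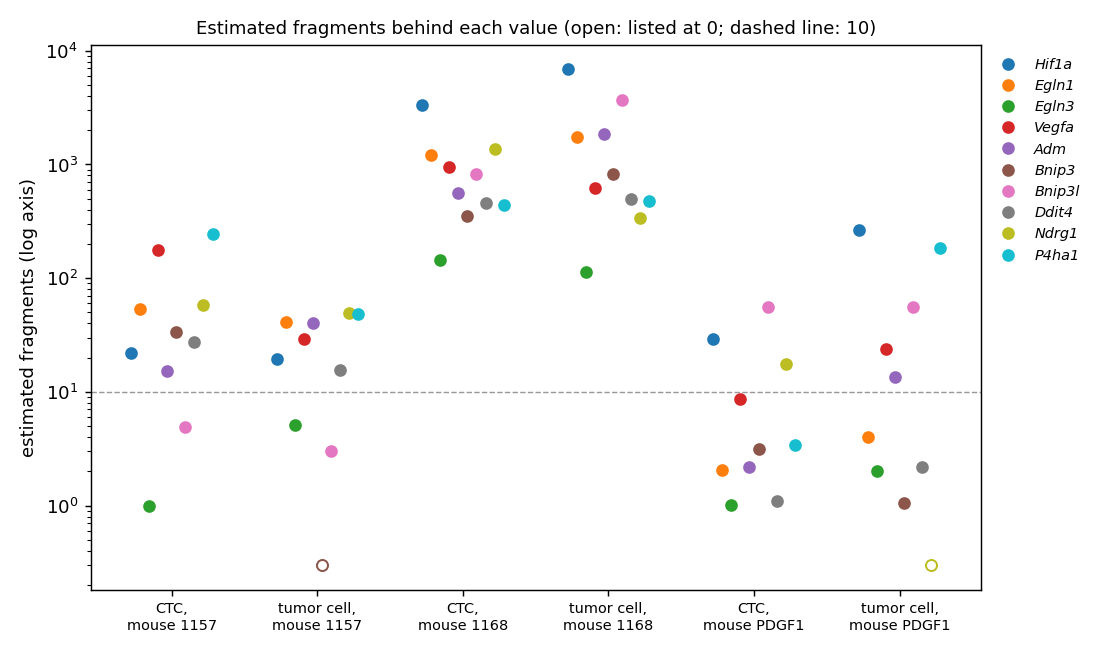
Estimated fragments behind the value of each hypoxia response gene (vertical log axis) in each cell, with a dashed line at 10 fragments and open symbols for values listed at 0. All 10 genes lie above 100 fragments in both cells of mouse 1168, while 7 in the CTC versus 5 in the tumor cell of mouse PDGF1 lie under 10.

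Few fragments stood behind the members outside mouse 1168, although the estimated depth of both mouse PDGF1 cells, 40.5 M (CTC) and 38.3 M (tumor cell), was above the 29.8 M of the mouse 1168 CTC. The median member had about 30.4 fragments in the CTC versus 24.3 in the tumor cell of mouse 1157. For mouse 1168 this was 697 (CTC) and 721 (tumor cell), and for mouse PDGF1 3.29 (CTC) and 8.79 (tumor cell). In the cells of mouse PDGF1, 0 members exceeded the receptor percentile given above in the CTC versus 0 in the tumor cell. For mouse 1157 these numbers were 2 (Vegfa and P4ha1) in the CTC versus 1 (Adm) in the tumor cell. Fragments copied from amplified RNA are not separate molecules, so these estimates bear on counting error only.

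The genes around the members in the pathway were uneven in mouse 1168, and 0 of those tested over mice in any list below were called by limma. Of all genes measured in that mouse, 22.7% were higher and 24.9% lower in the CTC by at least 1. These shares stand beside every list count given for mouse 1168, and no list was tested against them. Of 17 measured genes of the factor's own machinery (partners, hydroxylases, chaperones and its ubiquitin ligase), 5 were higher and 2 lower in the CTC, with a median difference of 0.48. Hif1an, the asparaginyl hydroxylase that blocks the factor's transactivation, had 21.7 FPKM in the CTC versus 1.06 in the tumor cell. Hsp90ab1, a chaperone of the alpha subunit, had 1278 FPKM (CTC) and 330.2 FPKM (tumor cell), and its relative Hsp90aa1 had 1080 (CTC) and 365 (tumor cell). Tceb2, the elongin B subunit of the ligase, had 572 FPKM (CTC) and 421 FPKM (tumor cell).

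Of 28 other hypoxia targets measured in mouse 1168, 3 were higher and 10 lower in the CTC, with a median of -0.54. Angptl4, a secreted inhibitor of lipoprotein lipase, had 0.0110 FPKM in the CTC versus 10.3 in the tumor cell, and Anxa1, a phospholipid-binding protein, had 0.0701 (CTC) and 57.9 FPKM (tumor cell). Plin2 and Hilpda, which coat or protect lipid droplets and were picked after their values were seen, had 14.3 and 11.1 FPKM in the CTC, against 108 and 44.7 FPKM in the tumor cell. In mouse 1157 Plin2 was the other way round, at 42.5 FPKM (CTC) and 0.393 FPKM (tumor cell). The most abundant of the list differed less: Fam162a had 298 FPKM in the CTC versus 259 in the tumor cell, Higd1a had 149 (CTC) and 104 (tumor cell), and the cytokine Mif had 442 (CTC) and 831 (tumor cell). In mouse 1157 the same list had 7 higher and 7 lower of 15 measured, beside 29% and 37.1% of all genes.

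Of 8 measured partners of the secreted members, the CTC of mouse 1168 was higher for 2 and lower for 2. Ramp1 and Ramp2 encode subunits that turn the calcitonin-receptor-like receptor into receptors for different peptides of the calcitonin family, to which adrenomedullin belongs. They had 98.1 and 13.5 FPKM in the CTC, against 36.3 and 1.73 FPKM in the tumor cell. Vegfb, a relative of Vegfa, had 19.5 FPKM in the CTC versus 44.7 in the tumor cell, so the CTC was lower for Vegfb and higher for Vegfa. In mouse 1157 Vegfb had 101 FPKM in the CTC versus 1.10 in the tumor cell. Flt1, a receptor of both, had 0.364 FPKM in the CTC versus 3.29 in the tumor cell of mouse 1168.

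Of 14 measured mitophagy partners in mouse 1168, 1 was higher and 2 lower in the CTC, with a median of -0.67: Dnm1l, which divides mitochondria, had 19.8 FPKM in the CTC versus 6.25 in the tumor cell, and Pink1, the kinase that flags damaged mitochondria, had 22.3 (CTC) and 48.7 (tumor cell). The abundant members of that list, Phb2, Gabarap and Sqstm1, had 211, 156 and 98.98 FPKM in the CTC, against 109, 174 and 170 FPKM in the tumor cell. Of 15 measured TOR partners, 3 were higher and 4 lower: the kinase Mtor had 35.6 FPKM in the CTC versus 2.03 in the tumor cell, and Txnip, a thioredoxin-binding protein, had 0.157 (CTC) and 3.35 (tumor cell). Sesn3, a sestrin that restrains TOR, had 5.17 FPKM (CTC) and 1.88 FPKM (tumor cell) there, and in mouse 1157 it had 177 FPKM (CTC) and 0.176 FPKM (tumor cell). Of 6 measured paralogs and partners of Ndrg1 and P4ha1, 1 was higher and 0 lower: Ndrg3 had 40.6 FPKM in the CTC versus 10.2 in the tumor cell, while Ndrg2 had 206 (CTC) and 196 (tumor cell). P4hb, the partner subunit of P4ha1, had 376 FPKM in the CTC versus 667 in the tumor cell.

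**Figure D4:**
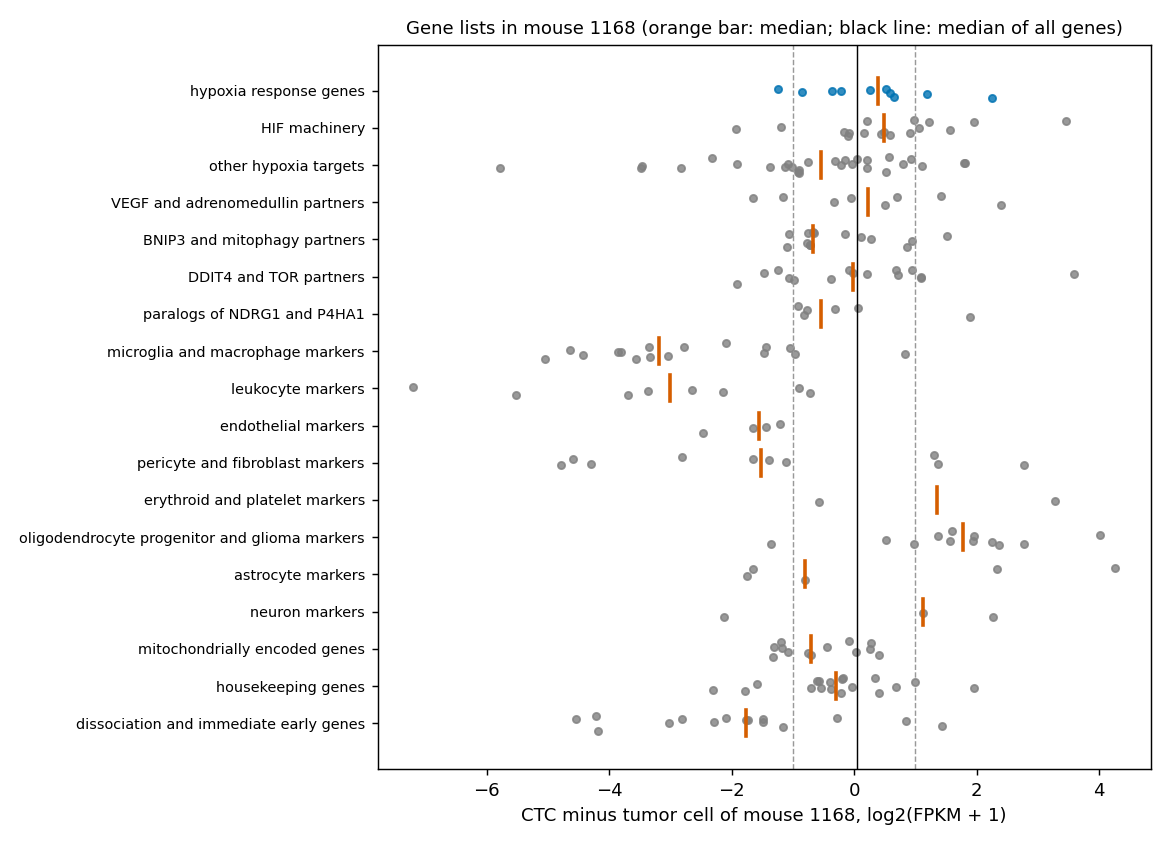
CTC minus tumor cell of mouse 1168 on the log2(FPKM + 1) scale for each measured gene (points) of each list, with list medians as orange bars, dashed lines at -1 and 1, and a black line at the median of all genes. The hypoxia response genes spread on both sides of 0 with a median of 0.39, while the microglia and macrophage markers have a median of -3.19.

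Markers of other cell types also differed between these cells. In mouse 1168 the 18 microglia and macrophage markers summed to 254 FPKM in the CTC versus 2578 in the tumor cell. Of them, 8 (CTC) and 15 (tumor cell) were at 1 FPKM or more. Lyz2, Tyrobp and Ctss, the most abundant of the list, had 174, 28.4 and 19.4 FPKM in the CTC, against 1202, 346 and 672 FPKM in the tumor cell. Aif1, Tmem119 and C1qa were listed at 0 in the CTC. The 15 leukocyte markers summed to 6.62 FPKM in the CTC versus 329 in the tumor cell, with 1 (CTC) and 8 (tumor cell) at 1 FPKM or more. Endothelial markers summed to 0.775 (CTC) and 13.0 FPKM (tumor cell), with Cldn5 listed at 0 in both cells. Pericyte and fibroblast markers summed to 25.9 (CTC) and 87.7 FPKM (tumor cell), with 3 of 10 measured higher and 7 lower. Most of that sum in the CTC came from Cspg4 and Pdgfra, at 17.5 and 5.28 FPKM, against 1.71 and 1.42 FPKM in the tumor cell. Cspg4 and Pdgfra are also counted among the oligodendrocyte progenitor and glioma markers. Oligodendrocyte progenitor and glioma markers went the other way, at 613 FPKM in the CTC versus 278 in the tumor cell, with 9 of 12 higher and 1 lower. Astrocyte, neuron, and erythroid and platelet markers summed to 772, 69.6 and 72.4 FPKM in the CTC, against 412, 19.3 and 12.9 FPKM in the tumor cell. Most of these sums in the CTC came from Aldoc, Map2 and Itga2b, at 613, 64.4 and 68.0 FPKM, against 30.9, 12.5 and 6.09 FPKM in the tumor cell, and the median difference over the 5 measured astrocyte markers was -0.81. Immediate early genes, which handling of tissue can induce, summed to 58.1 FPKM in the CTC versus 325 in the tumor cell, with 12 of 15 measured lower, and 5 of 13 mitochondrially encoded genes were lower and 0 higher. The part of these differences in the values of Ndrg1, Vegfa, Adm and Bnip3l was not tested.

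In mouse 1157, FPKM summed to 236427 in the CTC versus 80273 in the tumor cell. On this deposited scale the CTC of that mouse was higher for 9 and lower for 1 of 14 measured housekeeping genes, with a median of 3.17. The median over the 5 measured hypoxia response genes was -0.37. Over all genes measured in mouse 1157 the median was -0.62, with 29% higher and 37.1% lower. In mouse PDGF1, 0 of 10 housekeeping genes were higher and 6 lower, with a median of -1.41, and the 2 measured hypoxia response genes had a median of -1.09. Over all genes measured in mouse PDGF1 the median was -1.18, with 23.7% higher and 59.9% lower. The FPKM of protein-coding genes was 59.3% of the total in the CTC versus 40.0% in the tumor cell of mouse 1157, 87.7% (CTC) and 75.7% (tumor cell) for mouse 1168, and 80.0% (CTC) and 73.9% (tumor cell) for mouse PDGF1. Microglia and macrophage markers summed to 5.41 FPKM (CTC) and 14.1 FPKM (tumor cell) in mouse 1157, and to 2.31 FPKM (CTC) and 26.3 FPKM (tumor cell) in mouse PDGF1. Mitochondrially encoded genes summed to 86.1 FPKM (CTC) and 24.2 FPKM (tumor cell) in mouse 1157, and to 27.0 FPKM (CTC) and 1237 FPKM (tumor cell) in mouse PDGF1. The part of these differences in the values of Adm, Hif1a, P4ha1 and the other hypoxia response genes was not tested.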

How the data were processed

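The deposited table gives FPKM per gene for 3 CTCs and 3 tumor cells. STAR 2.4.2a, Cufflinks 2.2.1 and GRCm38 are listed in the submitters' processing notes. Per the labels' protocols, RNA was linearly amplified and libraries were made with a stranded TruSeq kit; the sources used here do not say whether counting used strand. Of 45038 rows, 27 had names turned into dates and 211 had repeated names, and 44804 were kept, of which 41450 matched GENCODE mouse release M21 by name and gave the coordinates and classes.

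Differences are CTC minus tumor cell on log2(FPKM + 1), a scale that understates changes of low genes. limma 3.58.1 in R 4.3.3, with a mean-variance trend, was run two-sided with a threshold of 0.05 on 4165 genes, those that reached 1 FPKM in no fewer than 3 of 6 cells. This fit ignores the pairing, and its p-values measure the spread between the 3 cells of a group. With 1 cell of each kind per mouse, that spread does not separate mouse, cell and amplification. The labels pair the cells, since a CTC and a tumor cell share each mouse. Deviations from the group means correlated between paired cells, across genes, at 0.178 (mouse 1157), 0.689 (mouse 1168) and 0.428 (mouse PDGF1). Between a CTC and a tumor cell of different mice the correlation ran from -0.622 to 0.422. The upper value, for the CTC of mouse PDGF1 and the tumor cell of mouse 1157, exceeded that of the mouse 1157 pair. The mouse entered as a block in an alternative fit. No correlation between genes across cells is given, since both cells of mouse 1168 stand apart from the rest.

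Depth was estimated from the steps of 1 fragment among low values of 2058 single-transcript coding genes, of which 83.7% to 92.7% lay within 0.15 of a whole fragment. Fragments per gene use the longest annotated transcript and are approximate for genes with several. The receptor level rests on 1426 genes. Python 3.11.15, numpy 2.4.6, pandas 2.3.3 and matplotlib 3.10.9 did the rest. Simulated data with known changes and no mouse effect served to test the code of the limma fit. They do not measure its power in these cells.

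The members and the gene lists were chosen with earlier results of these data known. The rule for naming genes took all members and, of each other list, the 3 genes of highest mean FPKM and the 2 of largest difference in mouse 1168, and the text gives those that bear on a member. The alternatives were a pseudocount of 0.1, other filters, FPKM rescaled to equal sums, quantile normalization, the mouse block, and leaving out each cell and each mouse. Rescaling over 20714 protein-coding rows was added after seeing the data.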

Additional observations from a re-analysis of the deposited data

How the results depend on the processing

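No setting called a hypoxia response gene over the 3 mice. With the mouse as a replicate block, limma with Benjamini-Hochberg adjustment called 1 of 4165 genes, not a member, and the members' adjusted p was 0.966 to 0.998. The SE was smaller with the block for each of the 6 members tested, such as 0.862 against 1.904 for Hif1a and 0.848 against 1.85 for Adm. With FPKM rescaled over all rows and over protein-coding rows, Vegfa was -0.019 and -0.31 and P4ha1 was -1.36 and -1.71, while the median of all genes shifted to -0.68 and -0.96. P4ha1 was also -0.56 with a pseudocount of 0.1 and -0.034 after quantile normalization. Leaving out a cell or a mouse gave ranges of -1.38 to 0.23 for Hif1a, -0.76 to 0.67 for Egln1 and -0.40 to 0.69 for P4ha1. Those of Adm (-1.81 to -0.11), Vegfa (0.18 to 1.3998) and Ndrg1 (0.24 to 1.32) kept their sign in each such fit that still tested them, but moved by over 1.5 times without either cell of mouse PDGF1, and Adm (-0.34) and Ndrg1 (1.07) also did without the CTC of mouse 1157. Vegfa (0.98) did so without mouse PDGF1. Without a cell of mouse 1168 only P4ha1 was tested. The cause was not tested.

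Counts of members past a difference of 1 within a mouse moved with the scaling, which also changed how many members reached 1 FPKM. In mouse 1157, 2 of 5 were higher in the CTC with a pseudocount of 0.1, where 34.9% of all genes were. With FPKM rescaled over all rows, 1 of 10 was higher and 6 lower (15.1% and 63.4% of all genes), and over protein-coding rows 1 of 10 was higher and 7 lower (16.4% and 68.8%). In mouse 1168, 2 of 10 were lower with rescaling over all rows (32.3% of all genes), and over protein-coding rows 1 of 10 was higher and 2 lower (14.8% and 37.7%). In mouse PDGF1, 1 of 6 was higher with rescaling over all rows (23.9%), and over protein-coding rows 1 of 7 was higher and 4 lower (23.6% and 53.3%). Values of mouse PDGF1 rest on the fewest fragments, with 7 members of the CTC against 5 of the tumor cell under 10.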
